A study of Homo sapiens with 6 samples.

Results

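The response to an ALK5 inhibitor was followed in SAS cells that carried a control siRNA, with CYLD left in place. SAS is an established human cell line from an oral squamous cell carcinoma. The comparison used 3 of the study's 6 arrays, chosen by title: 1 array of siCtrl cells given the inhibitor and 2 arrays of siCtrl cells without it. Per the labels' protocols, the cells of all 6 samples received an siRNA and grew for 2 days. They then spent 48 h in medium without serum, with DMSO or with the inhibitor. The siCtrl cells without the inhibitor are therefore called DMSO-treated here. The other 3 arrays held siCYLD cells, 2 with DMSO and 1 with the inhibitor, and served for a test of where the response differed between the siRNAs. The inhibitor's name and dose and the siRNA sequences were not given in the sources used here.

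ALK5, encoded by TGFBR1, is the type I receptor kinase for TGF-β. After ligand binds the type II receptor, ALK5 phosphorylates SMAD2 and SMAD3, which join SMAD4 and control transcription with partners such as AP-1. In normal squamous epithelium the pathway restrains the cell cycle, while in carcinoma cells it is also known for inducing matrix, cytokine and invasion genes. The comparison addresses which transcripts differ when ALK5 is inhibited in cells for which the protocols name no added ligand.

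Each value below is a MAS5 signal, a linear intensity per probe set, given for siCtrl replicate 1, siCtrl replicate 2 and the inhibitor array in that order. A difference is the inhibitor array minus the mean of the siCtrl arrays on the scale log2(signal + 16.1), followed by its standard error (1 array against 2). Because of the offset, differences of dim genes are understated. A gene was called at a two-sided adjusted p below 0.05 in limma, with Benjamini-Hochberg adjustment over 12935 genes. The single inhibitor array was taken to have the spread of the duplicates of both siRNAs. Nothing in the labels says that the duplicates came from separate cultures, so the p-values rest on a spread between arrays that may be purely technical.

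The siCtrl arrays correlated at 0.987 over the genes tested, and the inhibitor array correlated with them at 0.971 and 0.977. Median signals were 82.8, 77.1 and 73.4, and the ACTB 3′ to 5′ signal ratio was 3.41, 3.21 and 3.67. The array titled siCtrl replicate 2 carried a source name for the CYLD siRNA, and siCYLD replicate 1 one for the control siRNA. Groups followed the titles. The 2 DMSO arrays titled siCYLD correlated at 0.988, and DMSO arrays of different titles at 0.964 to 0.966. CYLD read 411, 500 and 349 on the siCtrl arrays, above the 278, 230 and 176 of the siCYLD arrays. The epithelial markers EPCAM (20400, 21000 and 20800) and CDH1 (15200, 14600 and 14300) were bright on all 3 arrays. The fibroblast genes COL3A1, LUM and PDGFRA and the leukocyte gene PTPRC stayed below the expression filter, a signal of about 79.3. The other listed fibroblast genes passed it. COL1A1 read 326, 295 and 284, DCN 121, 82.6 and 27.6, and COL1A2 14, 61.9 and 44.6, and none of these was called.

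With the inhibitor, KRT5 and THBD rose steeply, while IL11, SKIL and CCN2 fell. KRT5, the keratin of basal keratinocytes, read 1090, 1250 and 12500, a rise of 3.41 ± 0.14 (adjusted p = 1.66e-08). THBD, which encodes the anticoagulant receptor thrombomodulin, read 1730, 1600 and 8290 and rose by 2.30 ± 0.12 (adjusted p = 2.26e-07). In both genes the siCtrl arrays lay close together and the inhibitor array far above them. In RNA of whole cultures, more cells with a transcript and more of it per cell cannot be told apart. IL11, a cytokine of the interleukin-6 family, read 721, 594 and 99.2 and fell by 2.54 on the log2 scale (standard error 0.20, adjusted p = 1.1e-05). SKIL, a SMAD corepressor that TGF-β signalling itself induces, read 4810, 5400 and 1900 and fell by 1.42 (standard error 0.14, adjusted p = 6.69e-05). CCN2, the matricellular growth factor also known as CTGF, read 583, 559 and 235 and fell by 1.23 (standard error 0.18, adjusted p = 0.00125). Other kept probe sets moved the same way, those of THBD by 2.27 and 2.40, those of SKIL by -1.41 and -1.13 and that of IL11 by -1.38. When the moderation took no account of signal level, KRT5, THBD and IL11 kept their calls, and SKIL and CCN2 had adjusted p of 0.0698 and 0.0551.

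The stretches just before the start sites of 4 of these genes show where TGF-β and AP-1 type letters occur. They are the 250 bases before the start in RefSeq on GRCh38.p14, 5′ to 3′ on the gene's strand, and capitals mark CAGAC or its reverse complement GTCTG, the core bound by SMADs, and TGANTCA, the core bound by AP-1. KRT5 lies at chr12:52520395-52520644 on the minus strand, IL11 at chr19:55370464-55370713 on the minus strand, CCN2 at chr6:131951373-131951622 on the minus strand and SKIL at chr3:170357465-170357714 on the plus strand.
KRT5: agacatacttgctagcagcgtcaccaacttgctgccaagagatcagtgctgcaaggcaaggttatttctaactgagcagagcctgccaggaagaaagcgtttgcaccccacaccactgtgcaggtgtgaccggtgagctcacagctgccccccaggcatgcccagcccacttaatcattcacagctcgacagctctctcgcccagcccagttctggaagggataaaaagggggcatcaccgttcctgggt
IL11: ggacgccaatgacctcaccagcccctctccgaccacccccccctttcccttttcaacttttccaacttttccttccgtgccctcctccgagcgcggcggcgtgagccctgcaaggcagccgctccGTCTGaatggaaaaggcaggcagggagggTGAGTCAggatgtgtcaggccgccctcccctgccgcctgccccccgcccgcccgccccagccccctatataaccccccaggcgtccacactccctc
CCN2: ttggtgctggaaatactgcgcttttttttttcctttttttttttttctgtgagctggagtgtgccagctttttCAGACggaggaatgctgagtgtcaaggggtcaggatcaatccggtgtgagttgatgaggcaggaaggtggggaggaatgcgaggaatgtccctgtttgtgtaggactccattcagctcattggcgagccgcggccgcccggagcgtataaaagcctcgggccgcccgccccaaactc
SKIL: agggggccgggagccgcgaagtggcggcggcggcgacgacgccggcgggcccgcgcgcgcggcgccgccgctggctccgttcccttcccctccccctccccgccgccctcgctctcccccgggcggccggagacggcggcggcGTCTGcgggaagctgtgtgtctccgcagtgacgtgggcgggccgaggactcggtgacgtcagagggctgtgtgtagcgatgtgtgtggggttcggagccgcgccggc
IL11 held GTCTG beginning 125 bases and TGAGTCA beginning 96 bases before its start, CCN2 held CAGAC at 177 bases and SKIL held GTCTG at 107 bases. KRT5 held neither. These letters are common: CAGAC on either strand was found in 37.8% of all 27305 promoters of this length, in 32.5% of 508 promoters of genes called higher, in 37.7% of 453 of genes called lower and in 35.8% of 9486 of genes not called. TGANTCA, which reads alike on both strands, was found in 6.6%, 3.74%, 7.73% and 3.91% of the same sets. In these 4 stretches no match of one motif overlapped a match of the other. The shares are descriptions, and a match is not a site of binding.

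**Figure D1:**
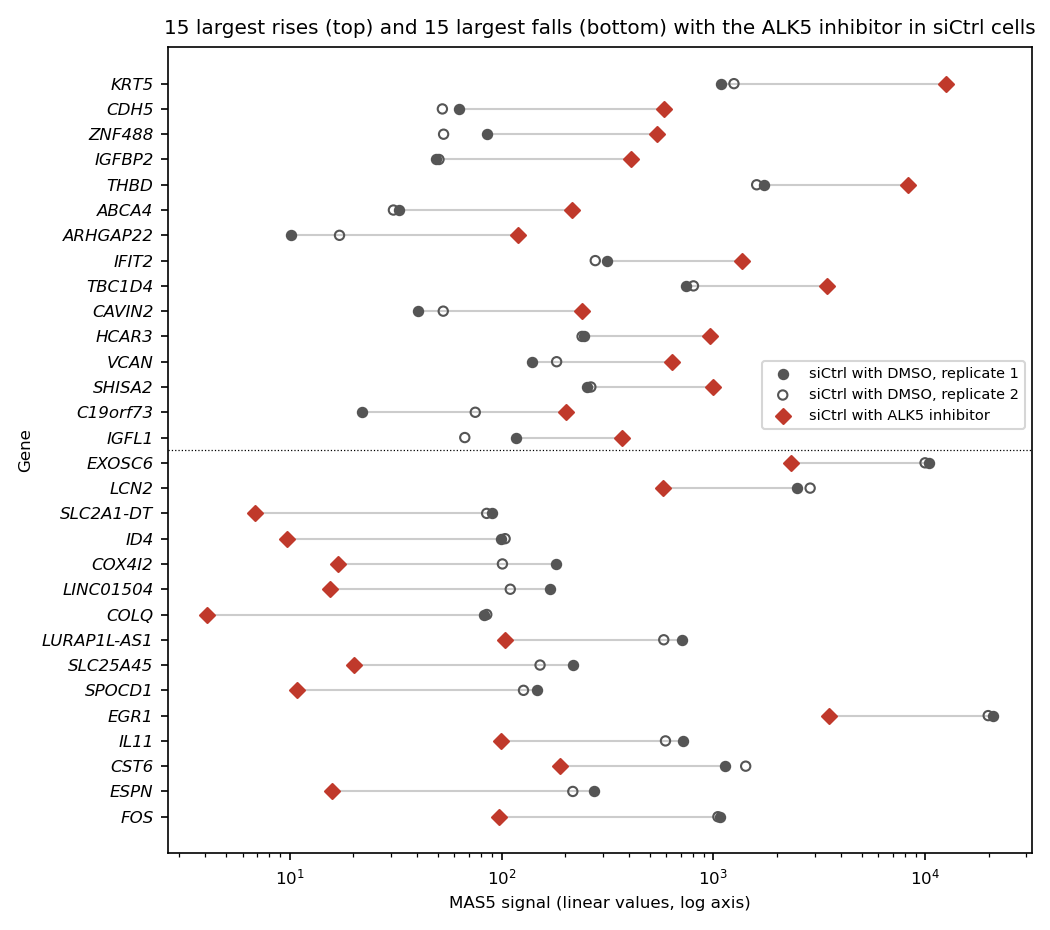
MAS5 signals on a log axis of the 15 genes with the largest rises (above the dotted line) and the 15 with the largest falls (below it) among genes called, with the siCtrl arrays as filled and open circles and the inhibitor array as a red diamond. In each gene the inhibitor array lies outside both siCtrl arrays, and KRT5 moves from 1090 and 1250 to 12500.

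Across the transcriptome, 1211 of 12935 genes (9.36%) were called, 649 higher (5.02%) and 562 lower (4.34%). Of these, 133 were at least 2-fold higher and 130 at least 2-fold lower on the offset scale. The median difference over all genes was -0.002, and the median absolute difference was 0.23. Of 1225 other kept probe sets of called genes, 1069 (87.3%) had the direction of the representative probe set, against 66.9% for genes not called. The count rested on the assumption that spread follows signal level: without it, 35 genes were called (10 higher and 25 lower), 33 of them among the 1211. When the arrays were grouped by source name instead of title, limma called 0 genes, with 1206 at an unadjusted p below 0.05, so every call below rests on the titles. When arrays were centred on their medians, which moved the median of all genes to 0.10, the split was 641 higher and 251 lower.

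The largest rises after KRT5 were those of CDH5, ZNF488 and IGFBP2. CDH5, which encodes the cadherin of endothelial junctions, read 63, 52.6 and 587 (3.03 ± 0.56, adjusted p = 0.00458). The other endothelial markers measured, PECAM1 (191, 216 and 191) and VWF (25, 70.1 and 169), were not called. The zinc finger gene ZNF488 read 85.4, 53.3 and 541 (2.73 ± 0.47). IGFBP2, a binding protein for insulin-like growth factors, read 49.2, 50.7 and 409 (2.69 ± 0.34). All 3 started near or below the expression filter, so their rises were from dim signals, and they passed it only through the inhibitor arrays. With no filter on low values CDH5 was not called, while ZNF488 and IGFBP2 were. TBC1D4, a Rab GTPase-activating protein of insulin-stimulated glucose transporter traffic, rose from a higher level, 742 and 805, to 3440 (2.13 ± 0.19). The interferon-induced gene IFIT2 read 315, 277 and 1360 (2.14 ± 0.21), and SHISA2 read 253, 264 and 997 (1.88 ± 0.18). VCAN, which encodes the matrix proteoglycan versican, read 140, 182 and 641 (1.90 ± 0.25), and the 4 further probe sets kept for it differed by 1.27 to 1.99. The remaining genes of the 15 largest rises were ABCA4, ARHGAP22, CAVIN2, HCAR3, C19orf73 and IGFL1, with differences between 1.87 and 2.27. ABCA4 passed the expression filter only through the inhibitor arrays, and CAVIN2 only through the inhibitor array of siCtrl cells. ABCA4, CAVIN2, C19orf73 and IGFL1 were not called with no filter on low values. Without siCtrl replicate 1, CAVIN2 (1.89, adjusted p = 0.0918) and C19orf73 (1.25, adjusted p = 0.0977) lost their calls.

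The largest falls were led by the immediate early gene FOS. FOS, a subunit of AP-1, read 1080, 1050 and 96.9 (-3.26 ± 0.17, adjusted p = 2.26e-07). EGR1, an immediate early zinc finger factor, read 20800, 19800 and 3500 (-2.53 ± 0.10, adjusted p = 1.66e-08). It was the brightest gene among the 15 largest falls, and its siCtrl arrays differed little. ESPN, which encodes the actin-bundling protein espin, read 273, 217 and 15.8 (-3.03 ± 0.28). CST6, the epithelial protease inhibitor cystatin E/M, read 1140, 1420 and 189 (-2.65 ± 0.16), but its other kept probe set had a difference of 0.09. LCN2, the iron-scavenging lipocalin, read 2480, 2860 and 580 (-2.17 ± 0.14). EXOSC6, a subunit of the RNA exosome, read 10400, 9970 and 2320 (-2.13 ± 0.11). SPOCD1 (147, 127 and 10.8) had another kept probe set with a difference of 0.33, which represented the gene without siCtrl replicate 1, when its value was 0.26 and not called (adjusted p = 0.739). The rest of the 15 were SLC25A45, LURAP1L-AS1, COLQ, LINC01504, COX4I2, ID4 and SLC2A1-DT, between -2.46 and -2.18. On the inhibitor array LURAP1L-AS1 read 104 and the others 4.09 to 20.1, far below the expression filter. COLQ (82.9, 85.2 and 4.09) and SLC2A1-DT (90.3, 85.1 and 6.89) also started close to that filter. SLC2A1-DT and ID4 passed it only through the siCtrl arrays without the inhibitor. With no filter on low values neither COLQ nor SLC2A1-DT was called, while ID4 was. Of these, SLC2A1-DT lost its call without either siCtrl array (adjusted p = 0.0977 without replicate 1 and 0.0711 without replicate 2).

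Of 43 measured components of the TGF-β and activin/BMP pathway, 5 were called higher (11.6%) and 6 lower (14.0%). Over all genes 5.02% were called higher and 4.34% lower. The median difference of the 43 was -0.02, and 0.09 after median centring, against -0.002 and 0.10 over all genes. The ligands moved apart. TGFB1 read 1040, 1030 and 425 and fell by 1.26 (standard error 0.14, adjusted p = 0.000198). TGFB2 read 636, 595 and 1310 and rose by 1.07 ± 0.15 (adjusted p = 0.000714), with other probe sets at 0.04 and 0.69. The inhibitor array was the low one for TGFB1 and the high one for TGFB2. INHBA, the activin A subunit, rose from 368 and 405 to 583 (0.58 ± 0.14, adjusted p = 0.0231), and BMP2 rose from 985 and 969 to 1420 (0.53 ± 0.14, adjusted p = 0.032). FST, which encodes the activin antagonist follistatin, rose from 814 and 1070 to 2580 (1.45 ± 0.17, adjusted p = 0.000198). TGFB3, INHBB, GDF11, GDF15 and BMP7 were not called, with differences between -0.65 and 0.56. BMP2 was not called without siCtrl replicate 1 (0.54, adjusted p = 0.0533), and its other kept probe set stood at 0.30 and was not called when it represented the gene (adjusted p = 0.269).

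Of the 16 receptor and SMAD genes measured, 1 was called, not far from the 9.36% called over all genes. TGFBR1, which encodes the target of the inhibitor, read 1650, 1600 and 1640 (0.02 ± 0.14). The type II receptor gene TGFBR2 read 3280, 4160 and 3960 (0.10 ± 0.14), with the inhibitor array between the siCtrl arrays. Of 10 receptor genes, ACVR1, a BMP and activin type I receptor, was the single one called, from 3350 and 2990 to 2230 (-0.51 ± 0.13, adjusted p = 0.0236), and it was not called without siCtrl replicate 1 (-0.42, adjusted p = 0.0668) or with median centring (-0.40, adjusted p = 0.114). None of the 6 SMAD genes measured on this list was called (limma), although 3 had an unadjusted p below 0.05. SMAD2, SMAD3 and SMAD4 had differences of -0.02, 0.08 and 0.11, and SMAD1, SMAD5 and SMAD9 of 0.40, -0.39 and -0.45.

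Among the proteins that store or release TGF-β, and the brakes on the pathway, single genes moved. ITGB8, an integrin chain that frees latent TGF-β, read 3140, 2970 and 5440 (0.83 ± 0.12, adjusted p = 0.000948). LTBP3, a latent TGF-β binding protein, read 2990, 3130 and 2060 (-0.56 ± 0.12, adjusted p = 0.011), with other probe sets at -0.56 and 0.03. PMEPA1, a membrane protein that takes SMADs away from the receptor, read 417, 403 and 170 (-1.20 ± 0.15, adjusted p = 0.000437). The corepressor gene TGIF2 read 1760, 1580 and 1170 (-0.51 ± 0.14, adjusted p = 0.0373), and had an adjusted p of 0.112 without siCtrl replicate 1. SMAD7, the inhibitory SMAD, read 1050, 1080 and 985 and was not called (-0.11 ± 0.17). SMURF2, a ubiquitin ligase partner of SMAD7, read 5880, 6250 and 4820 and was not called either (-0.33 ± 0.11, adjusted p = 0.0811). SKI, SMURF1, NEDD4L, TGIF1, FSTL3 and FKBP1A lay between -0.16 and 0.17.

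Of 41 listed genes known to be induced by TGF-β in one cell type or another, 9 were called lower and 9 higher, 22.0% each. Over all genes 4.34% were called lower and 5.02% higher. The median difference was -0.11, against -0.002 over all genes. After median centring it was -0.01, against 0.10 over all genes. Besides IL11, SKIL, CCN2 and PMEPA1, the genes that fell were KLF10, TGM2, JUNB, MMP9 and SPHK1. KLF10, a TGF-β-inducible zinc finger factor, read 1760, 1790 and 869 (-1.02 ± 0.13). The genes that rose were HMGA2, SNAI2, THBS1, PDGFB, TGFBI, MMP2, COL4A2, INHBA and VEGFA. HMGA2, an architectural chromatin factor, read 1760, 2100 and 5300 (1.46 ± 0.14, adjusted p = 4.76e-05), with 5 other probe sets between 0.33 and 1.11, and was not called on the mean of its probe sets (0.70, adjusted p = 0.124). MMP2 had another kept probe set at -0.59, and the mean of both stood at 0.05 and was not called (adjusted p = 0.942). SNAI2, the transcription factor SLUG, read 2140, 2120 and 4650 (1.12 ± 0.12, adjusted p = 0.000144). Both lie on the list for their induction in epithelial-mesenchymal transition, and here the inhibitor array was the high one. THBS1, the matrix protein thrombospondin-1, read 8580, 7870 and 15100 (0.88 ± 0.11), but its 6 other probe sets ran from -0.34 to 1.52, and without probe sets marked _x_at or _s_at it stood at -0.34 and was not called. TGFBI, a secreted matrix protein named for its induction by TGF-β, read 8050, 9530 and 14600 (0.74 ± 0.11, adjusted p = 0.0016). VEGFA (0.35) and MMP9 (-0.76) lost their calls without either siCtrl array, with adjusted p of 0.0539 and 0.0914 without replicate 1 and of 0.055 and 0.0596 without replicate 2.

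**Figure D2:**
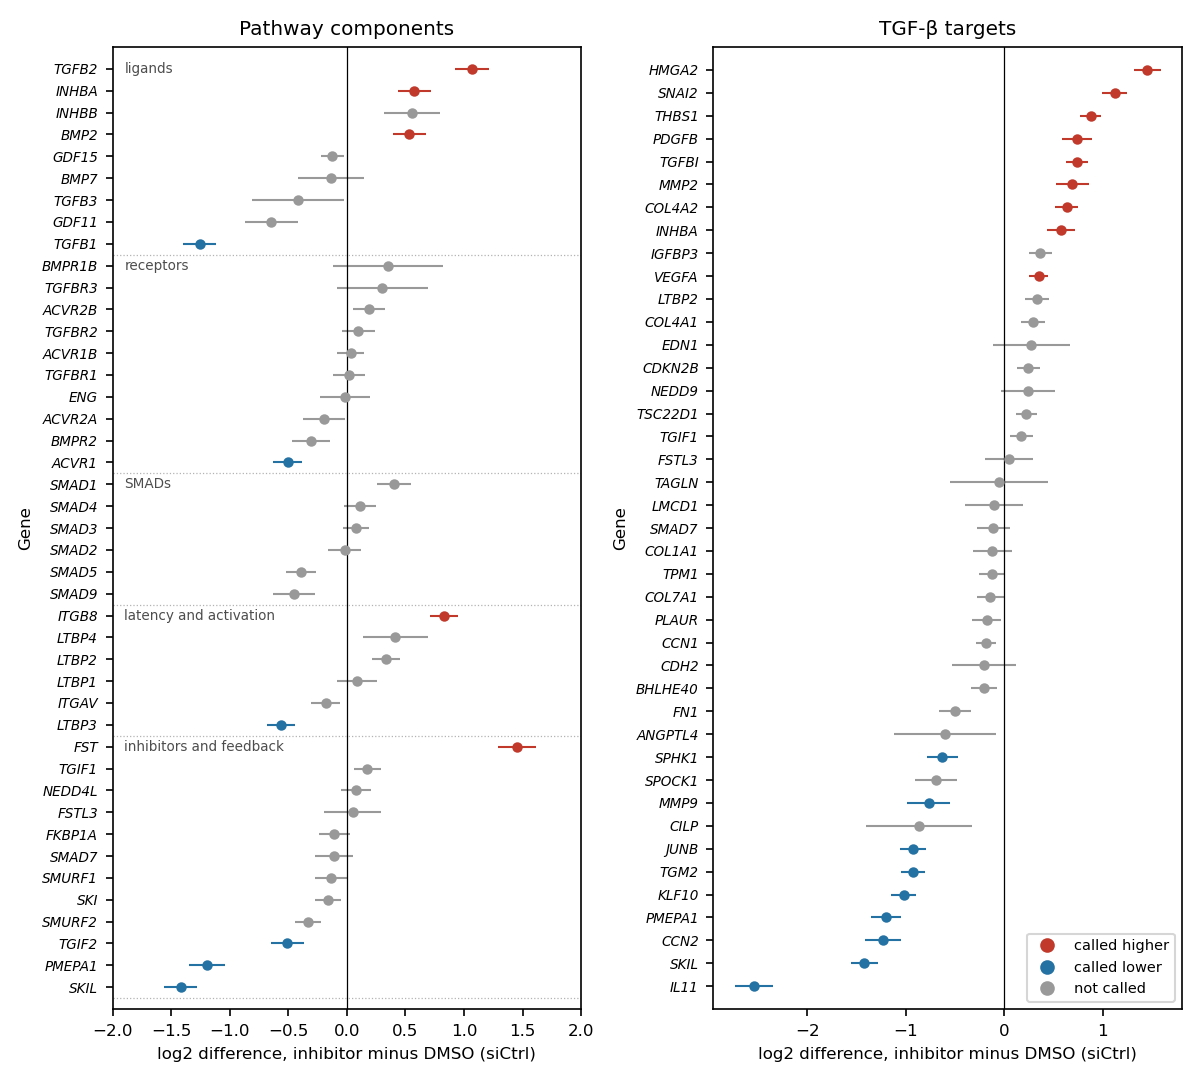
Log2 differences (inhibitor minus DMSO in siCtrl cells) with standard errors of 43 TGF-β pathway components by role (left) and 41 TGF-β targets (right). Red points were called higher, blue lower and grey not called, with 1 probe set per gene. On these probe sets receptors and SMADs lie between ACVR1 at -0.51 and SMAD1 at 0.40. The targets spread from IL11 at -2.54 to HMGA2 at 1.46.

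BMP-responsive genes were split. Of 14 measured, 3 were called lower (21.4%) and 1 higher (7.14%), beside 4.34% and 5.02% of all genes. ID4 and ID2, inhibitors of basic helix-loop-helix factors, fell, ID4 from 99.6 and 104 to 9.75 and ID2 from 169 and 193 to 69.1 (-1.21 ± 0.29, adjusted p = 0.0192). ID4 passed the expression filter only through the siCtrl arrays without the inhibitor. ID1, of the same family, rose from 521 and 529 to 857 (0.69 ± 0.16, adjusted p = 0.0189). HEY1, a repressor shared with the Notch pathway, fell from 1470 and 1360 to 611 (-1.19 ± 0.14). The other Notch genes called moved both ways: the ligand genes JAG1 (3350, 2870 and 8060; 1.38 ± 0.16) and DLL1 (5380, 5750 and 11600; 1.06 ± 0.11) rose, as did JAG2 and HES4, and NOTCH3 and MAML2 fell. HES4, NOTCH3 and MAML2 were not called without siCtrl replicate 1 (adjusted p of 0.123, 0.12 and 0.0575).

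Genes of basal keratinocytes and of squamous differentiation leaned to opposite sides. Over all genes 5.02% were called higher and 4.34% lower. Of 20 basal genes, 5 were called higher (25.0%) and 0 lower, with 8 at an unadjusted p below 0.05 and a median difference of 0.24. Besides KRT5 these were NGFR, the neurotrophin receptor of basal cells (506, 465 and 1420; 1.52 ± 0.19), KRT15 (90.9, 177 and 349; 1.34 ± 0.36), the laminin receptor chain ITGA6 (1660, 1680 and 2980; 0.82 ± 0.13) and S100A2 (0.57). KRT14, the usual partner of KRT5, was dim, at 76.2, 62.3 and 107, and not called. TP63 and KRT17 had no probe set with 1 gene symbol and were not measured. Of 37 listed differentiation genes, 19 were measured, and KRT1, IVL, FLG and SPRR3 were among those below the expression filter. Of the 19, 4 were called lower (21.1%) and 1 higher (5.26%). The falls were those of CST6, whose other kept probe set stood at 0.09, SCEL, KLK6 and PPL. SCEL, the gene of sciellin in the cornified envelope, read 2320, 2090 and 831 (-1.39 ± 0.18), and the kallikrein gene KLK6 read 3540, 3640 and 1860 (-0.94 ± 0.12). The kallikrein gene KLK7 rose (0.59, adjusted p = 0.0495) and was not called without siCtrl replicate 2 (0.47, adjusted p = 0.131). Without siCtrl replicate 1, KRT15 (0.92, adjusted p = 0.119) and PPL (-0.38, adjusted p = 0.0934) were not called, and the basal list had 4 called higher and 1 lower.

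Junction and mesenchymal genes showed no common direction. Of 30 junction genes, CDH3, DSC3 and KRT19 were called higher and SPINT1 lower, with a median of -0.08 that turned to 0.02 after median centring. CDH3, the P-cadherin of basal epithelium, read 8690, 10600 and 13400 (0.48 ± 0.13), and was not called without siCtrl replicate 1 (0.34, adjusted p = 0.0918), nor was SPINT1 (-0.39, adjusted p = 0.0618). On the mean of its probe sets DSC3 stood at 0.33 (adjusted p = 0.231). Of 25 mesenchymal genes, LOX, SNAI2, MMP2 and TPM2 were called higher and TNC lower, while 12 differences were positive and 13 negative. For both lists the shares to compare with are those of all genes, 5.02% higher and 4.34% lower. TPM2 stood at 0.32 (adjusted p = 0.693) without probe sets marked _x_at or _s_at, and on the mean of the kept probe sets MMP2 (0.05), TPM2 (0.34) and TNC (-0.40) were not called (adjusted p of 0.942, 0.26 and 0.187). LOX, the collagen cross-linking enzyme, read 143, 155 and 371 (1.23 ± 0.25), while the matrix glycoprotein gene TNC read 4500, 4960 and 3020 (-0.64 ± 0.11). ZEB1, ZEB2 and SNAI1, core repressors of epithelial genes, were below the expression filter.

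Of 40 matrix, protease and adhesion genes, 10 were called higher and 6 lower, beside 5.02% higher and 4.34% lower over all genes. The plasminogen activator genes rose together: PLAT read 220, 210 and 523 (1.22 ± 0.24) and PLAU read 6860, 6220 and 12700 (0.96 ± 0.11). With THBD and the thrombin receptor gene F2R (1990, 1810 and 3540; 0.90 ± 0.14) they made up the 4 of 14 coagulation genes called, all higher (28.6%, beside 5.02% of all genes). F2R stood at 0.56 (adjusted p = 0.38) without probe sets marked _x_at or _s_at. The tissue inhibitors of metalloproteinases were split, TIMP3 rising from 3000 and 3250 to 6490 (1.05 ± 0.13) and TIMP1 falling from 3190 and 3320 to 1990 (-0.71 ± 0.13). TIMP2 also fell (-0.57). The metalloproteinase genes MMP10 (5.31, 2.38 and 49.9; 1.73 ± 0.47), MMP14 (0.80) and MMP2 (0.69, with its other probe set at -0.59) rose, MMP10 from signals at the floor, and MMP9 fell (-0.76). PLOD2, a collagen lysyl hydroxylase, fell from 4040 and 4270 to 2260 (-0.87 ± 0.11), and the protease gene ADAMTS1 from 4960 and 5330 to 3010 (-0.77 ± 0.11).

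Of 36 immediate early and ERK feedback genes, 9 were called in each direction, 25.0% each beside 5.02% higher and 4.34% lower over all genes. The falls after FOS and EGR1 were those of DUSP1 (8810, 8670 and 4250; -1.04 ± 0.11), KLF10, JUNB, IER2, NR4A1, ZFP36 and JUND. Another probe set of DUSP1 stood at 0.59, and the mean of both was not called (-0.22, adjusted p = 0.388). Among the rises, SPRY1, which encodes a Sprouty inhibitor of receptor tyrosine kinase signalling, read 460, 396 and 1560 (1.83 ± 0.19, adjusted p = 8.59e-05). DUSP6, the ERK phosphatase, read 2600, 3850 and 6480 (1.03 ± 0.18, adjusted p = 0.00358), and ETV4, an ETS factor, read 378, 638 and 1040 (1.05 ± 0.23, adjusted p = 0.0135). In both, siCtrl replicate 2 lay above replicate 1 and the inhibitor array above both. ETV4 stood at 0.31 (adjusted p = 0.369) without probe sets marked _x_at or _s_at. EGR3, KLF6, DUSP4, PHLDA1, DUSP5 and IER5 rose as well, EGR3 from 896 and 836 to 1870 (1.10 ± 0.14).

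Proliferation genes lay higher with the inhibitor. Of 55 measured, 14 were called higher (25.5%, beside 5.02% of all genes) and 0 lower, with 26 at an unadjusted p below 0.05. The median difference was 0.44, and 51 of 55 were positive. The calls were mostly of DNA replication genes. CDC25A, a phosphatase that starts S phase, read 448, 464 and 997 (1.10 ± 0.17), and GINS1, a subunit of the replicative helicase complex, read 2590, 3470 and 5720 (0.93 ± 0.16). TYMS, thymidylate synthase, read 1260, 1530 and 2570 (0.88 ± 0.16). MCM2, MCM3, MCM4, MCM5, MCM7 and PCNA were also called, between 0.68 and 0.84, and so were RRM2 and the mitotic genes BUB1, BUB1B, AURKA and MAD2L1. RRM2 was not called without siCtrl replicate 1 (0.40, adjusted p = 0.125) or with median centring (0.64, adjusted p = 0.0512), and its other kept probe set stood at 0.08. CDC25A was not called on the mean of its probe sets (0.76, adjusted p = 0.077). The siCtrl arrays themselves differed in this list: replicate 2 lay above replicate 1 in 43 of 55 genes, by a median of 0.24. Without replicate 1 the list had 6 called higher and a median of 0.36, and without replicate 2 it had 19 and a median of 0.52. With no intensity trend none of the 55 was called. The part of the difference between the siCtrl arrays in the result was not tested.

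**Figure D3:**
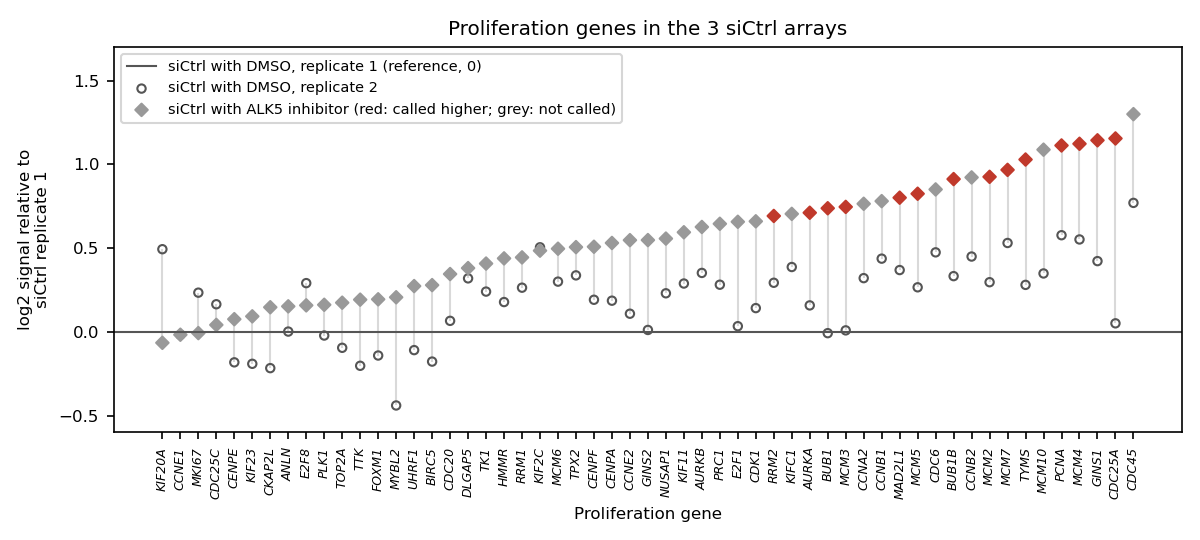
Log2 signal, without an offset, of 55 proliferation genes in siCtrl replicate 2 (open circles) and the inhibitor array (diamonds, red where called higher) relative to siCtrl replicate 1 (line at 0). The inhibitor array lies highest for most genes, and replicate 2 lies above replicate 1 in 43 of 55.

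Of 18 cyclins, cell-cycle inhibitors and MYC genes, 1 was called lower and 1 higher (5.56% each), close to the shares of all genes. CDKN1A, which encodes p21 and is known to be induced by both p53 and TGF-β, read 5930, 6300 and 3680 (-0.73 ± 0.12, adjusted p = 0.00177), and CDKN2A read 6060, 6580 and 11400 (0.86 ± 0.12, adjusted p = 0.000823). Of 22 p53 targets, 5 were called lower (22.7%) and 1 higher (4.55%), beside 4.34% and 5.02% of all genes. With CDKN1A, these were TP53INP1 (1710, 1330 and 590; -1.33 ± 0.17), ZMAT3 (937, 956 and 509; -0.87 ± 0.15), SESN2, TP53I3 and, higher, the kinase gene PLK2 (706, 917 and 1850; 1.18 ± 0.19). TP53I3 was not called without siCtrl replicate 1 (adjusted p = 0.0977) or replicate 2 (adjusted p = 0.0693).

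Stress genes leaned lower. Of 27 genes of the unfolded protein and integrated stress response, 8 were called lower (29.6%) and 2 higher (7.41%). Over all genes the shares were 4.34% and 5.02%. DDIT3, the stress factor CHOP, read 5750, 5980 and 2680 (-1.12 ± 0.12, adjusted p = 0.000107). CHAC1, a glutathione-degrading enzyme, read 1550, 1560 and 896 (-0.78 ± 0.14), and the chaperone gene HSP90B1 read 14800, 13800 and 9170 (-0.64 ± 0.11). PHGDH, of serine synthesis, and SDF2L1 were higher (0.60 and 0.44) but not called without siCtrl replicate 1 (adjusted p of 0.0616 and 0.112). After median centring 5 were called lower and 1 higher, with a median of -0.01 against 0.10 over all genes. Of 16 NRF2 targets, 4 were called lower (25.0%) and 0 higher, with 5 at an unadjusted p below 0.05. NQO1, a quinone reductase, read 5320, 5880 and 2810 (-0.99 ± 0.13), and the ferritin light chain gene FTL read 29000, 29400 and 16200 (-0.85 ± 0.10). HMOX1 and GCLM fell by 0.92 and 0.68 on the log2 scale, and GCLM was not called on the mean of its probe sets (-0.39, adjusted p = 0.0937). The median of the NRF2 list, -0.09, became 0.01 with median centring, where that of all genes was 0.10, and the count of 4 stood.

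Of 24 interferon-stimulated genes, 5 were called higher (20.8%) and 1 lower (4.17%), although the median was -0.16. Over all genes 5.02% were called higher and 4.34% lower. IFIT3, of the same family as IFIT2, read 761, 774 and 2300 (1.56 ± 0.15), with another probe set at 0.20, and TRIM22 read 115, 122 and 358 (1.47 ± 0.28). OAS3 and IRF1 were higher by 0.66 and 0.64, and IRF7 was lower (918, 862 and 473; -0.89 ± 0.16). Of 29 NF-κB targets, 4 were called higher (13.8%) and 3 lower (10.3%). The interleukin-1 genes rose, IL1B from 751 and 888 to 2010 (1.28 ± 0.14) and IL1A from 3080 and 3110 to 4970 (0.68 ± 0.12), as did SOD2 and CSF1. LCN2, the chemokine gene CXCL2 (2230, 2320 and 1300; -0.80 ± 0.12) and MMP9 fell.

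Insulin and IGF signalling genes held further large rises. Of 20 measured, 3 were called higher and 2 lower. IRS1, the insulin receptor substrate, read 513, 516 and 1830 (1.80 ± 0.18, adjusted p = 7.58e-05), with other probe sets at 0.97 and 1.75. IGFBP6 rose by 0.81, and the kinase gene SGK1 fell from 216 and 244 to 124 (-0.81 ± 0.16). Of 22 YAP/TAZ targets, 4 were called each way (18.2% each), CCN2 falling most and TGFB2 rising most. Of 26 hypoxia and glycolysis genes, 3 were called each way (11.5% each). Among them were the peptide hormone gene ADM (2020, 1990 and 3750, 0.90 ± 0.13) and the enolase gene ENO2 (1030, 909 and 483, -0.98 ± 0.15). Of 12 Wnt targets 1 was called each way (8.33%), of 17 cholesterol and fatty acid synthesis genes 2 were called higher (11.8%) and of 11 genes of the EGF family and its receptors 1 was called higher (9.09%), beside 5.02% higher and 4.34% lower over all genes.

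**Figure D4:**
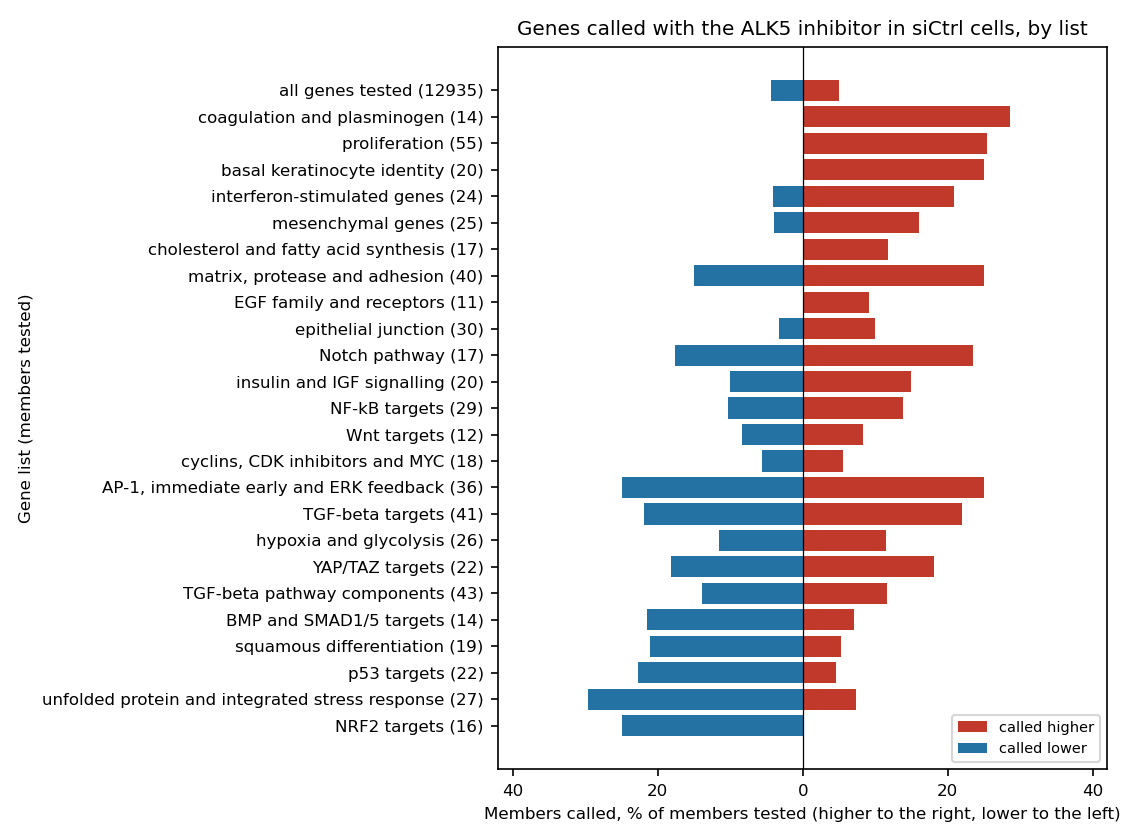
Share of each list's tested members called higher (red, to the right) or lower (blue, to the left) with the inhibitor in siCtrl cells, with the number tested in brackets and all 12935 genes on top (5.02% higher and 4.34% lower). Lists share some genes, and proliferation, basal and coagulation genes have no member called lower while NRF2 targets have none called higher.

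Most genes called in siCtrl cells had the same direction in siCYLD cells, which were measured on the 3 other arrays. There, 2900 genes (22.4%) were called. Of the 649 genes called higher in siCtrl cells, 606 were also higher in siCYLD cells and 427 were called higher there. Of the 562 called lower, 524 were also lower and 351 called lower. The genes called the same way in both, 778, made up 64.2% of the siCtrl calls and 26.8% of the siCYLD calls. Over all genes tested the 2 responses correlated at 0.497, a description across genes, which are not independent replicates. THBD read 1870, 1820 and 12800 in siCYLD replicate 1, replicate 2 and the siCYLD inhibitor array (2.78), IL11 read 1220, 1510 and 185 (-2.77), and SKIL read 7110, 8750 and 2160 (-1.86). Their interactions were not called (adjusted p of 0.219, 0.769 and 0.337).

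A test of the difference between the responses, the siRNA by inhibitor interaction, called 216 of 12935 genes (1.67%). Without the intensity trend limma called 0 interactions, with 1480 at an unadjusted p below 0.05, and with groups from source names 0, with 524. It called 42 of the 649 genes higher and 27 of the 562 lower in siCtrl cells. FN1, a listed TGF-β target not called in siCtrl cells (226, 177 and 137), read 20900, 20200 and 558 in siCYLD cells. Its interaction was -4.67 (adjusted p = 4.01e-07). Of the genes named by rule and called in siCtrl cells, TGFBI had the lowest adjusted p of the interaction. It rose in siCtrl cells (8050, 9530 and 14600), while in siCYLD cells it read 29200, 28400 and 6550 and fell by 2.14 on the log2 scale, an interaction of -2.87 (adjusted p = 1.08e-06). THBS1 and SOX4, a SOX family factor, likewise rose in siCtrl cells (0.88 and 0.73) and fell in siCYLD cells (-0.70 and -1.01). Their other kept probe sets ran in siCtrl cells from -0.34 to 1.52 for THBS1 and from -0.20 to 1.83 for SOX4. SNAI2 rose in siCtrl cells and read 2590, 2490 and 2500 in siCYLD cells, an interaction of -1.14 (adjusted p = 0.00486). In all, 13 genes called higher in siCtrl cells were called lower in siCYLD cells, and 1 gene showed the reverse.

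For other genes the direction was shared and the size differed. PMEPA1 fell by 1.20 in siCtrl cells but from 5230 and 5670 to 377 in siCYLD cells (-3.80), where it started higher, an interaction of -2.60 (adjusted p = 8.25e-05). CST6 differed by -2.65 in siCtrl and -4.63 in siCYLD cells, and SGK1 by -0.81 and -2.40. FOS and EGR1 fell further in siCtrl cells, with differences of -3.26 against -1.76 for FOS and -2.53 against -1.85 for EGR1 (adjusted p of 0.00585 and 0.0325 for the interaction). KRT5 rose further in siCtrl cells, by 3.41 against 2.56 (adjusted p = 0.0463). TIMP3 rose by 1.05 against 2.93 and ended at a signal of 6490 in both inhibitor arrays. SMAD7, not called in siCtrl cells, read 1640, 2130 and 652 in siCYLD cells (-1.49), an interaction of -1.38 (adjusted p = 0.00897). Of 55 proliferation genes, 20 had an interaction called, and their list median was 1.61 in siCYLD cells against 0.44 in siCtrl cells.

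**Figure D5:**
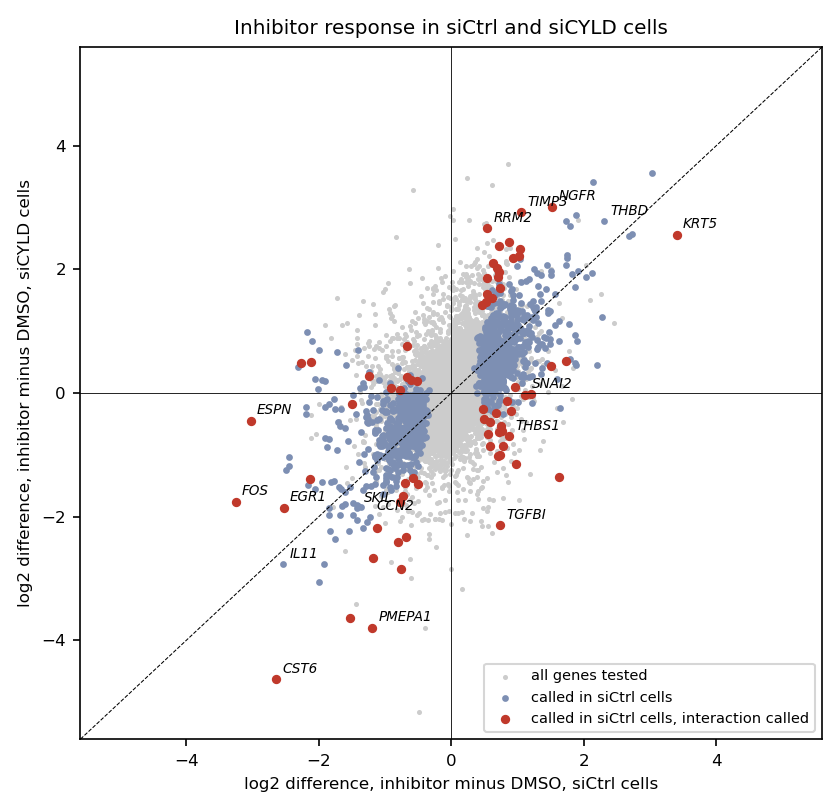
Log2 differences (inhibitor minus DMSO) in siCtrl cells (horizontal) and siCYLD cells (vertical) of 12935 genes, which rest on separate arrays, with the dashed line marking equal responses. Blue points were called in siCtrl cells and red points also had the interaction called, among them TGFBI, which rose in siCtrl and fell in siCYLD cells.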

How the data were processed

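Total RNA of 6 samples of SAS cells, 2 µg each, was labelled and hybridised to Affymetrix arrays per the labels' protocols. Per the submitters' processing notes, the authors used MAS5 (version not given in the sources used here), and the deposited values were 1 linear intensity per probe set and array. On every array the mean after trimming 2% at each end was 500.1. Of 54675 probe sets, 41091 had 1 gene symbol. An offset of 16.1, the 20th percentile of all signals, was added before log2. A probe set was kept if its highest group mean exceeded the median of all values, and the kept probe set of highest mean stood for its gene, 12935 of 19775. Models of 4 group means over 6 arrays (2 residual and 10.9 prior degrees of freedom) were fitted across all tested genes with limma (version 3.58.1, under R 4.3.3), moderated along the intensity trend, with two-sided tests and Benjamini-Hochberg adjustment. The script was tested on simulated data. Figures used matplotlib 3.10.9 in Python 3.11.15. Arrays carry no read depth, and their number limits the precision.

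The comparison, its marker genes and the gene lists were chosen with earlier results of these data known. Genes named were the 15 largest rises and falls among called genes, the 5 marker genes given with the comparison, all measured TGF-β components, up to 4 called members per direction of each other list (with none called, up to 2 of largest absolute difference) and up to 8 called interactions per direction; other called list members are given briefly. Lists are described by counts and medians, with no test of a list. Same-numbered DMSO arrays of the siRNAs did not deviate together (correlation 0.04), so numbers were not treated as pairs. Alternatives covered the offset, filter, scaling, probe set rule, moderation, grouping by source name, left-out arrays, a replicate block and the 3 siCtrl arrays alone; list counts under 5 of these settings were added after the data were seen.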

Additional observations from a re-analysis of the deposited data

Results flagged for a closer look

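The inhibitor response differed between the siRNAs, by the interaction in limma (adjusted p below 0.05), in 29 of the genes named by rule. Values are the log2 difference in siCYLD cells minus that in siCtrl cells, from 1 inhibitor array and 2 DMSO arrays per siRNA. Genes that were lower with the inhibitor in siCtrl cells and less so, or not, in siCYLD cells were FOS (1.50), EGR1 (0.68), ESPN (2.58), EXOSC6 (0.74), LINC01504 (2.76), SYT15 (2.61) and USF2 (1.51). SYT15 had another kept probe set with a difference of 0.51 in siCtrl cells, and those of USF2 stood at -0.32 and 0.01. On the mean of the kept probe sets the interactions of SYT15 (0.93), USF2 (0.56) and LPAR1 (1.23) were not called (limma, adjusted p of 0.487, 0.49 and 0.0785). That of USF2 was not called with robust moderation either (adjusted p = 0.0604), and that of LINC01504 was not called without siCtrl replicate 1 (2.49, adjusted p = 0.0629) or with median centring (2.70, adjusted p = 0.0553). Genes that were lower in siCYLD cells by more were CST6 (-1.98), PMEPA1 (-2.60), ADAMTS1 (-0.99), MMP9 (-2.09), CDKN1A (-0.94), SGK1 (-1.59) and MIR181A2HG (-2.11), together with SMAD7 (-1.38) and SMURF2 (-0.88), which were not called in siCtrl cells.

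Among genes called higher in siCtrl cells, the difference was larger in siCYLD cells for NGFR (1.49), TIMP3 (1.88), TYMS (1.56), RRM2 (2.13) and LPAR1 (1.66). It was smaller or turned for KRT5 (-0.84), SNAI2 (-1.14), THBS1 (-1.58), PFKFB3 (-1.30), TGFBI (-2.87), ADAM33 (-2.13), SLC47A2 (-3.00) and SOX4 (-1.74).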

How the results depend on the processing

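The count of 1211 genes called in siCtrl cells became 478 with no filter on low values, 35 with no intensity trend and 0 with groups from source names, where 1206 genes had an unadjusted p below 0.05 (limma); in that grouping each DMSO group holds 1 array of each title. Leaving out 1 DMSO array gave 891 (siCtrl replicate 1) to 1680. With a replicate block it was 2097. The other settings gave 822 to 1684. Of the 1211 genes, 343 (193 higher and 150 lower) were called in the same direction under each of the 15 alternatives other than source names and no trend in which they were tested. The 216 interactions became 33 with no filter, 135 with median centring, 95 with the mean of the kept probe sets, 134 without _x_at and _s_at probe sets, 0 with no intensity trend (1480 at an unadjusted p below 0.05), 723 with the replicate block, 0 with source names (524 unadjusted) and 288 to 459 with 1 DMSO array left out. The cause was not tested. Of the genes named, 33 lost their call in siCtrl cells and 4 their interaction call on the mean of the kept probe sets.

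Directions turned mostly for uncalled pathway genes near 0. With source names the inhibitor difference was -1.33 for INHBA, 0.03 for GDF15, -0.30 for TGFBR1, -0.05 for BMPR1B, -0.30 for SMAD3, -0.089 for LTBP1, -0.044 for LTBP2, -0.32 for LTBP4, -0.78 for FSTL3, 0.40 for SCEL and -0.068 for TGFBI, and the interaction was 1.05 for PMEPA1, -0.16 for TIMP3, 0.65 for MMP9, -0.16 for TYMS and -0.12 for LPAR1. With the mean of the kept probe sets it was 0.083 for GDF15, 0.006 for BMP7, -0.043 for TGFBR1, -0.23 for ACVR1B, -0.39 for ACVR2B, 0.14 for SMAD2, -0.057 for SMAD3 and -0.14 for SMAD4. Median centring gave 0.086 for ENG and 0.083 for SMAD2, and quantile normalization -0.003 for TGFBR1. Without _x_at and _s_at probe sets LTBP3 was at 0.029 and THBS1 at -0.34, each on another probe set. With an offset of 1, SYT15 was at 0.59 and its interaction at -0.87. With 1 DMSO array left out, values ran from -2.60 to 0.26 for SPOCD1, -0.004 to 0.042 for TGFBR1, -0.073 to 0.27 for TGFBR2, -0.026 to 0.089 for ACVR1B, -0.16 to 0.13 for ENG, -0.067 to 0.03 for SMAD2, -0.36 to 1.01 for COL1A2, and -2.12 to 0.52 for SYT15 (interaction -0.76 to 2.68).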
